A study of Mus musculus with 145 samples.

Results

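The Dppa family (developmental pluripotency associated genes) was followed through the reprogramming of mouse spermatogonial stem cells (SSCs) by way of 4 listed genes, *Dppa2*, *Dppa3*, *Dppa4* and *Dppa5a*, chosen by name from the 24615 genes of the single-cell count table. All 4 were detected, all 4 passed the filter on low counts in every comparison, and all 4 were also present among the 15426 genes shared by the tables of the chemically treated cells. *Dppa1* was the only other gene in the table whose symbol begins with Dppa.

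The family is named for its expression in pluripotent cells, and only DPPA2 and DPPA4 are related in sequence. These are chromatin proteins with a SAP domain that bind each other and keep the promoters of developmental genes free of DNA methylation, and in embryonic stem cells (ESCs) they are known activators of *Dux* and, through it, of genes of the 2-cell embryo. DPPA3 (also STELLA or PGC7) is a maternal factor and a classical marker of primordial germ cells that restrains maintenance methylation by binding UHRF1. DPPA5A (also ESG1) is a KH-domain RNA-binding protein abundant in pluripotent cells and related to the oocyte proteins OOEP and KHDC3.

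In the mm10 genome with GENCODE vM21, *Dppa4* (ENSMUSG00000058550.15, chr16:48283733-48294237, + strand) and *Dppa2* (ENSMUSG00000072419.5, chr16:48303908-48319723, + strand) are neighbours, with 9670 bases and no other annotated gene between them. *Dppa3* (ENSMUSG00000046323.8) lies at chr6:122626410-122630272 on the + strand and *Dppa5a* (ENSMUSG00000060461.5) at chr9:78367052-78368177 on the - strand. None of these genes overlaps another annotated gene. Annotated pseudogenes resemble *Dppa3* and *Dppa5a*, and how reads that match several places were counted is not given in the sources used here, so the levels of these members may include reads that the authors could not place.

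SSCs of C57BL/6[female] X DBA[male] mice (DBA/2 by the study's methods) that carry *Oct4*-EGFP, taken from male pups in the first week after birth, were cultured on inactivated embryonic fibroblast feeders with EGF, bFGF, GDNF and ESGRO, and 4339 cells in 46 libraries were collected on days 0 to 27 without added chemicals (the original condition, batches B1 and B2). Cells were picked by mouth pipette from colonies, so shares of cells describe the collected cells. In the modified STRT-seq used here, molecules were counted by a random tag added at reverse transcription, the unique molecular identifier (UMI). Germline-derived pluripotent stem cells (gPSCs) of 1 line at passages 1 and 15, grown in N2B27 with 2iL, and ESCs gave 1 library each. In a separate experiment by scTrio-seq2, 8 samples (724 cells) were treated with 5C, which is SGC707, vitamin C, EGCG, Daphnetin and TUDCA together, and 5 samples (365 cells) with DMSO. The 5C samples were of days 12 to 16 and the DMSO samples of days 20 to 24, with 8 cells of day 0 in DMSO replicate 5, so that treatment and day cannot be told apart.

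Libraries held 10833720 to 34609591 UMIs in STRT-seq and 3888311 to 10723044 in scTrio-seq2. In either assay 0 cells shared both their UMI total and their number of detected genes with another cell, although cell barcodes were reused between libraries. UMIs were pooled within each library by the class that the authors' annotation gave its cells (minimum 5 cells), which left 36 sums for SSC1-4, 7 for RPG1, 3 for RPG2, 8 for RPG3, 2 for RPG4 (the reprogramming clusters of the successful branch), 3 for Early-pluripotency, 6 for Meiotic, 12 for Neural and 5 for Fibroblast. Levels are given as CPM, UMIs per 1000000 UMIs of the sum. The summed level of 8 SSC markers had a median of 1834 CPM in SSC1-4 and of 1763, 456, 433 and 274 from RPG1 to RPG4, and that of 5 pluripotent markers had medians of 69.3, 177, 1728, 1694 and 1049 in this order. The Fibroblast, Meiotic and Neural classes kept 1527, 1796 and 1798 CPM of the SSC markers. The 6 neural markers summed to a median of 20.4 CPM (0 to 152) in the Neural class and 16.3 (7.51 to 43.6) in SSC1-4, with medians by cluster of 8.68 in Neural 1, 47.0 in Neural 2 and 288 in Neural 3. Because the classes were drawn from these same transcriptomes, with *Dppa2* among the authors' early-pluripotent markers, differences between classes are descriptions of them and no independent evidence. No source says that each library was its own culture. The p-values therefore measure the spread between these libraries, which may be technical.

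*Dppa2* separated the classes into a high and a low set. In RPG2 it stood at 243 CPM in the day 12 library and at 166 and 277 in the libraries of day 14, and in RPG3 the lowest, median and highest of 8 libraries were 168, 199 and 234. In no other class did the median pass 14.9 CPM. RPG1 ranged from 11.1 to 23.6, SSC1-4 from 0 to 26.7 with a median of 11.5, and the RPG4 libraries were at 3.97 and 4.23. In the order of the medians (RPG2, RPG3, RPG1, Fibroblast, Early-pluripotency, SSC1-4, Neural, Meiotic and RPG4), the step from RPG3 to RPG1 was the only one between neighbours whose libraries did not overlap.

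Its neighbour on the chromosome, *Dppa4*, was also high in RPG2 and RPG3. It was at 316, 192 and 351 CPM in the RPG2 libraries in the same order, at 286 to 387 with a median of 334 in RPG3, at 55.0 to 88.1 in RPG1 and at 23.9 to 113 with a median of 53.9 in SSC1-4. RPG4 was at 14.3 and 15.5, below every library of every other class. The Neural libraries spanned 33.3 to 179 with a median of 79.7, so the highest of them came near the lowest RPG2 library. Both genes were thus high in RPG2 and RPG3 and low on either side, and only for *Dppa4* was the level in RPG4 also clear of the SSC1-4 libraries.

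*Dppa3* had its peak in RPG2, where the 3 libraries lay close together at 593, 587 and 631 CPM. RPG3 followed without overlap at 190 to 360 CPM with a median of 282. SSC1-4 cells already held a median of 96.0 (18.5 to 219), RPG1 held 41.2 (30.4 to 80.3), and RPG4 held 4.37 and 7.45, below all other classes. Meiotic (142) and Neural (141) medians lay above that of SSC1-4, within its range. The median of this germ cell gene was thus lower in RPG1 than in SSC1-4 and highest in RPG2.

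*Dppa5a* had its highest level in RPG3 and lay above most SSC1-4 libraries already in RPG1. The 7 RPG1 libraries were at 379 and 297 CPM in the libraries of day 18, between 105 and 148 in the 3 of day 20 and at 231 and 205 in those of day 23, against 47.8 to 167 with a median of 74.6 in SSC1-4. RPG2 stood at 742, 357 and 910, and RPG3 at 1012 to 1442 with a median of 1348 and no overlap with RPG2. RPG4 was at 79.4 and 104, inside the SSC1-4 range. In this order RPG3 and RPG2 did not overlap, and RPG1 and RPG4 all but met, at 104.5 and 104.3 CPM. The other neighbours overlapped.

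**Figure D1:**
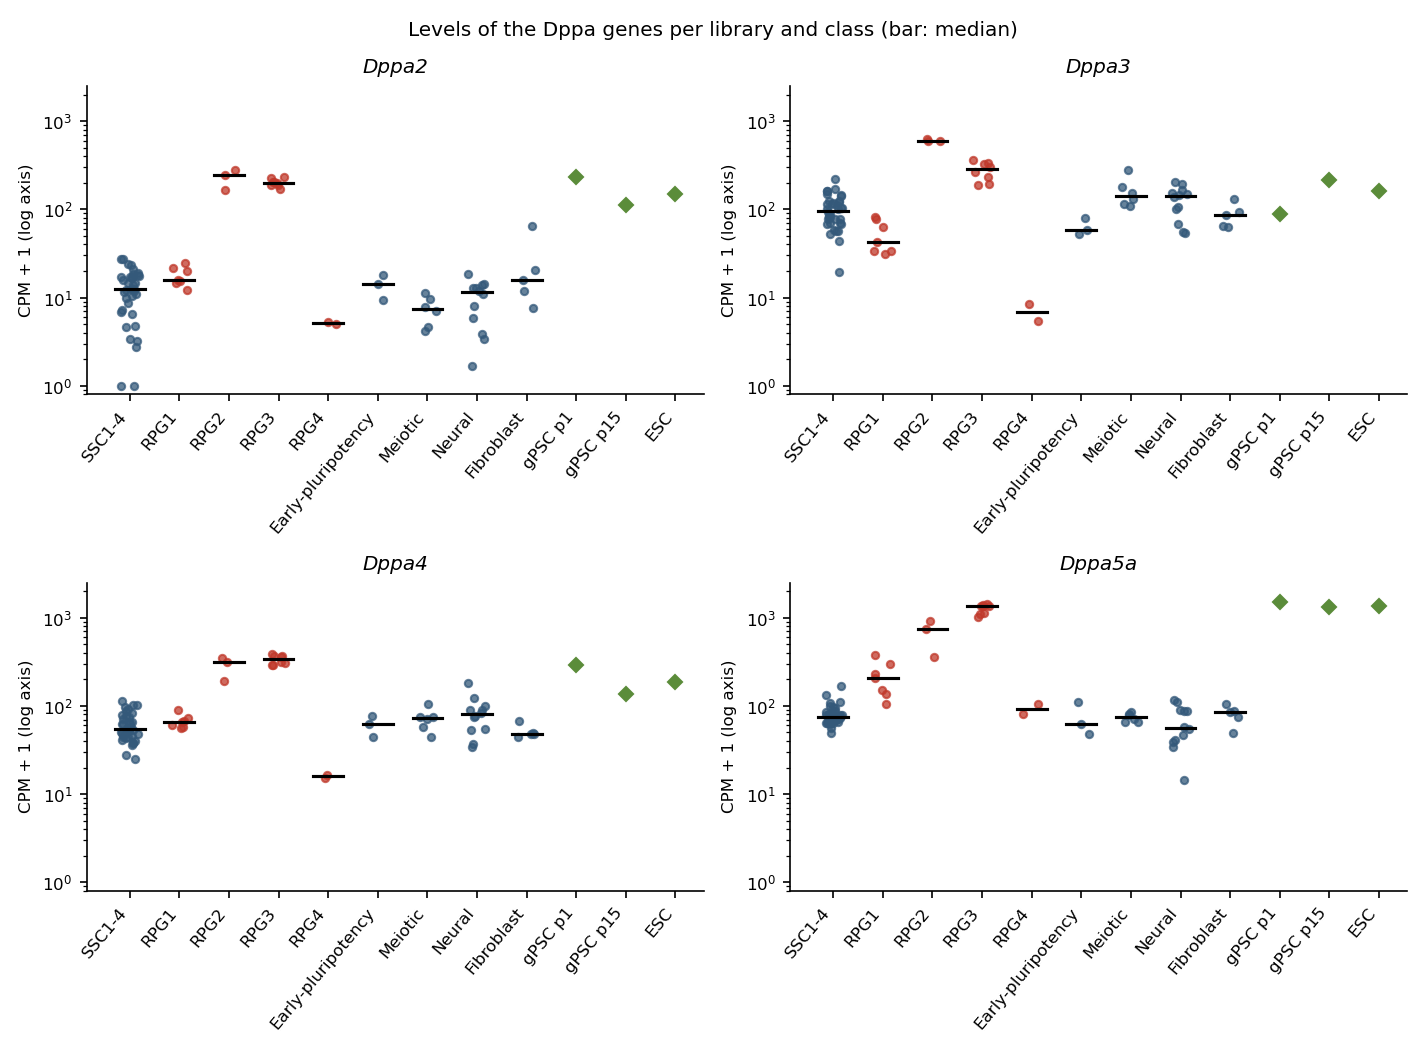
Level of each Dppa gene as CPM + 1 on a log axis, with 1 point per library and class of the original condition (red, RPG1 to RPG4; blue, other classes; bar, median) and diamonds for the single libraries of gPSC p1, gPSC p15 and ESC. *Dppa2* and *Dppa4* are highest in RPG2 and RPG3, with *Dppa4* at up to 179 CPM in Neural. *Dppa3* peaks in RPG2 near 593 CPM, *Dppa5a* climbs from RPG1 to RPG3, and the 2 RPG4 points lie below those of RPG2 and RPG3 in every panel.

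Classes were then compared with edgeR's quasi-likelihood test over 20030 genes. Calls needed an adjusted p (Benjamini-Hochberg) under 0.01 together with a change of 1 or more on the natural-log scale, which is 1.443 on the log2 scale. Against SSC1-4, 1 of the 4 members was called in RPG1, where 1.41% of all genes were called. *Dppa5a* was 2.72-fold higher (log2 fold change 1.45 ± 0.17 SE, adjusted p = 7.9e-10). This value sat on the fold threshold: it was 1.42 with batch as a covariate, 1.35 and 1.22 without day 18 replicate 3 and replicate 5, both of batch B2, and 1.43 without day 23 replicate 2, and in each of these the call was lost. In the 2 libraries that held both classes, *Dppa5a* was at 105 CPM in RPG1 and 133 in SSC1-4 on day 20, replicate 8, and at 205 and 167 on day 23, replicate 1, and the difference within these libraries was -0.0091 on the log2 scale (adjusted p = 0.999). Those were the 2 highest of the 36 SSC1-4 sums for *Dppa5a*. *Dppa3* was lower by 1.97-fold (-0.98 ± 0.23, adjusted p = 0.00445) and missed the fold threshold, and *Dppa2* (0.46 ± 0.30) and *Dppa4* (0.16 ± 0.19) had adjusted p of 0.433 and 0.729.

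In RPG2 all 4 members rose above SSC1-4, where 7.9% of all genes were called higher and the median of all genes was -0.52 on the log2 scale. *Dppa2* was 21-fold higher (4.40 ± 0.31, adjusted p = 6.4e-22), *Dppa5a* 9.53-fold (3.25 ± 0.20, adjusted p = 9.0e-25), *Dppa3* 6.78-fold (2.76 ± 0.24, adjusted p = 7.8e-17) and *Dppa4* 5.45-fold (2.45 ± 0.22, adjusted p = 2.4e-16). All RPG2 cells came from batch B2. With batch as a covariate the log2 values were 4.32, 3.18, 2.46 and 2.53 in the same order, and within the 2 libraries that held both classes they were 3.66, 3.29, 2.50 and 2.55, all called.

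All 4 members also rose in RPG3, where 11.1% of all genes were called higher than in SSC1-4. The change was 4.24 ± 0.24 for *Dppa2* (18.9-fold, adjusted p = 5.2e-28), 4.21 ± 0.15 for *Dppa5a* (18.6-fold, adjusted p = 8.2e-43), 2.71 ± 0.16 for *Dppa4* (6.55-fold, adjusted p = 5.6e-28) and 1.67 ± 0.18 for *Dppa3* (3.18-fold, adjusted p = 4.3e-13). The RPG3 cells were of days 12 to 23 and of both batches. Within the 2 libraries that held both classes the differences were 3.5 for *Dppa2*, 3.29 for *Dppa5a*, 2.03 for *Dppa4* and 2.52 for *Dppa3*, all called. *Dppa3* came under the fold threshold, at 1.42, when sums were taken per batch and day.

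RPG4 was the class in which members fell. Compared with SSC1-4, *Dppa3* was 16.7-fold lower (-4.06 ± 0.58, adjusted p = 1.6e-08) and *Dppa4* 4.01-fold lower (-2.0 ± 0.42, adjusted p = 0.000104), while 7.04% of all genes were called lower. *Dppa2* was not called (-1.59 ± 0.69, adjusted p = 0.0749), nor was *Dppa5a* (0.20 ± 0.32, adjusted p = 0.661). Only 21 cells of 2 libraries, both of batch B1 and day 20, stood behind RPG4. Without either of them the call of *Dppa4* was lost. Such a fit holds 1 RPG4 library and takes its spread from the other classes. Over the 9 alternatives the change of *Dppa4* ran from -2.42 to -1.86. Of the DMSO samples, 2 held RPG4 cells (6 and 5), which were not tested. *Dppa5a* was there at 1277 and 1538 CPM, above the DMSO SSC1-4 samples (99.0 to 116). *Dppa4* was above them too, at 79.3 and 81.3 (37.1 to 66.5). *Dppa3* was below them, at 53.5 and 101 (132 to 428), and *Dppa2* on both sides, at 1.98 and 44.8 (3.33 to 7.12).

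Between neighbouring steps of the branch, all 4 members rose from RPG1 to RPG2 (4.92% of all genes called higher), by 15.3-fold for *Dppa2*, 13.4-fold for *Dppa3*, 4.88-fold for *Dppa4* and 3.5-fold for *Dppa5a*. Without RPG2 day 14 replicate 6 the rise of *Dppa5a* (1.41, adjusted p = 0.000677) was under the fold required, and its call was lost. None was called from RPG2 to RPG3 (1.87% of genes called in either direction) by edgeR or by DESeq2, although 2 members had an unadjusted p under 0.05: *Dppa3* at -1.09 ± 0.34 (adjusted p = 0.0345) and *Dppa5a* at 0.96 ± 0.32 (adjusted p = 0.0516). The 95% interval of that step was -1.11 to 0.81 for *Dppa2* and -0.35 to 0.88 for *Dppa4*. From RPG3 to RPG4 all 4 members fell (1.78% of all genes called lower), *Dppa2* by 57.0-fold, *Dppa3* by 53.1-fold, *Dppa4* by 26.3-fold and *Dppa5a* by 16.2-fold. These 4 drops were called in each of the 17 alternatives run, including the comparison within the 2 libraries that held both classes.

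**Figure D2:**
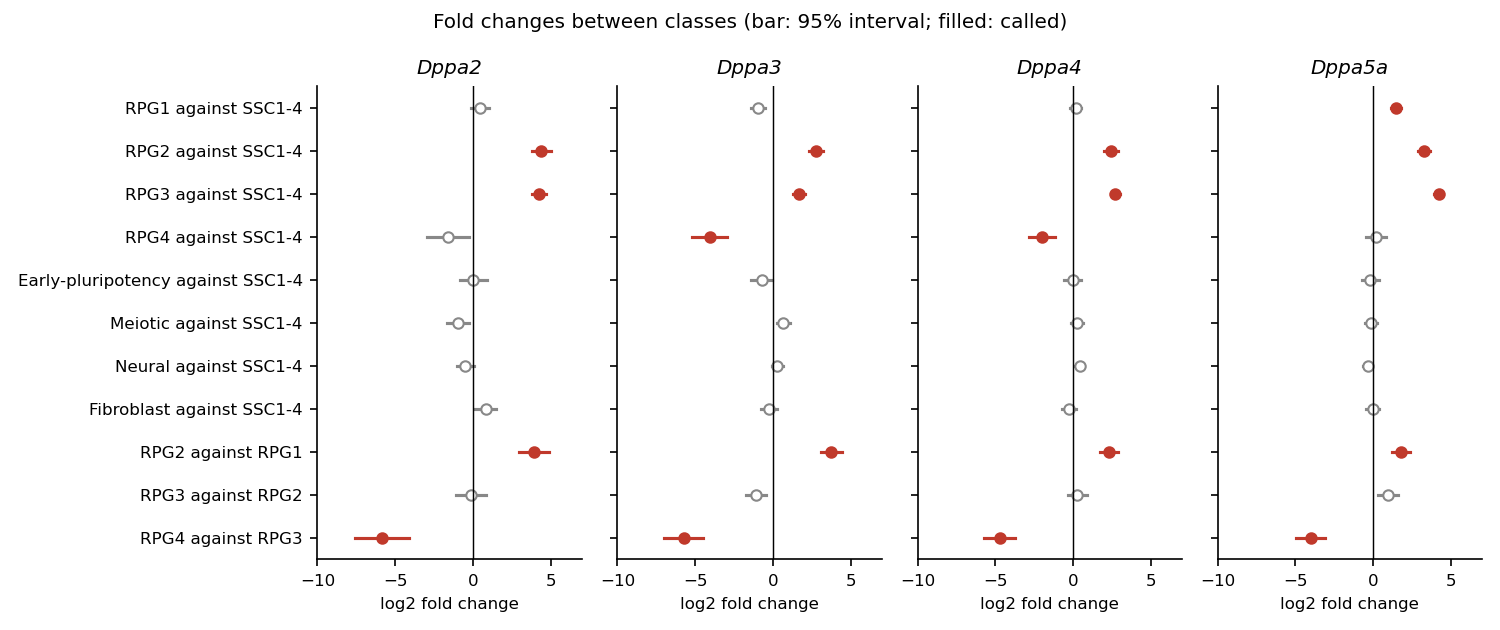
Log2 fold change of each member (x axis) in each comparison of classes (y axis), with the 95% interval from edgeR as a bar. Filled red points were called and open grey points were not: all members are called up in RPG2 and RPG3, none in the Early-pluripotency, Meiotic, Neural or Fibroblast classes, and the drop from RPG3 to RPG4 is -4.02 or more negative for every member.

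No member was called in any class of the failed branches against SSC1-4 by edgeR or DESeq2, where 0.275% of all genes were called in Early-pluripotency, 0.424% in Meiotic, 2.52% in Neural and 3.8% in Fibroblast. At an unadjusted p under 0.05 there were 1 member in Early-pluripotency (*Dppa3*, -0.72 ± 0.34), 2 in Meiotic (*Dppa2*, -0.95 ± 0.35; *Dppa3*, 0.65 ± 0.22), 2 in Neural (*Dppa4*, 0.42 ± 0.15; *Dppa5a*, -0.35 ± 0.16) and 1 in Fibroblast (*Dppa2*, 0.81 ± 0.34). *Dppa2* in the Early-pluripotency class was at 8.27, 13.4 and 17.1 CPM, inside the SSC1-4 range, and 0 of 18 pluripotency genes were called there. Beneath the class level, Fibroblast 2 and Neural 3 held little of the family. In Neural 3 the medians of 2 libraries were 1.03 CPM for *Dppa2*, 9.77 for *Dppa3*, 5.24 for *Dppa4* and 3.20 for *Dppa5a*, and in Fibroblast 2 the medians of 3 libraries were 0, 12.4, 6.73 and 9.96. These were also the clusters with the least *Dazl* among the failed branches (107 and 220 CPM) and the most *Col1a1*, a collagen of fibroblasts (292 and 775 CPM). Their testis somatic markers summed to medians of 274 CPM in Neural 3 and 106 in Fibroblast 2, against 13.4 in SSC1-4. The part of feeder or other somatic cells in these values was not tested.

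Single cells were compared after each was thinned to 50000 UMIs, since the median depth ran from 238901 UMIs in RPG1 to 345221 in RPG4. Cells below that number were left out (165 SSC1-4 cells and 21, 2, 7 and 0 cells from RPG1 to RPG4). A UMI of *Dppa2* was seen in 26.2% of 2100 SSC1-4 cells, 34.6% of 312 RPG1 cells, 86.7% of 45 RPG2 cells, 98% of 254 RPG3 cells and 21.2% of 33 RPG4 cells, and before thinning in 43.7%, 70.9%, 93.6%, 99.2% and 57.6%. For *Dppa4* the thinned shares were 71.0%, 80.1%, 93.3%, 99.6% and 39.4%, and for *Dppa3* they were 77.3%, 70.5%, 100%, 93.3% and 33.3%. The lowest share of *Dppa2* was 14.6%, in 500 Meiotic cells, and since no class is known to lack these genes, free RNA in the wells cannot be told apart from low expression. *Dppa5a* was seen in 81.8% of SSC1-4 cells and in 99.4% of RPG1 cells. In RPG4 it was seen in 84.8% of cells (exact 95% interval 68.1 to 94.9%). Before thinning the RPG4 shares were 90.9% for *Dppa5a*, 90.9% for *Dppa3* and 81.8% for *Dppa4*.

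Joint detection, which cannot exceed that of the least detected member, was also counted per cell. All 4 members had a UMI in 13.1% of SSC1-4 cells, 18.3% of RPG1 cells, 86.7% of RPG2 cells (39 of 45), 92.1% of RPG3 cells (234 of 254) and 9.09% of RPG4 cells (3 of 33, exact 95% interval 1.92 to 24.3%). *Dppa4* without *Dppa2* was the state of 51.4% of SSC1-4 cells and 51.9% of RPG1 cells, and of 6.67% of RPG2 cells and 1.57% of RPG3 cells. No test was made over cells, which are not replicates, and these intervals cover counting error only.

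**Figure D3:**
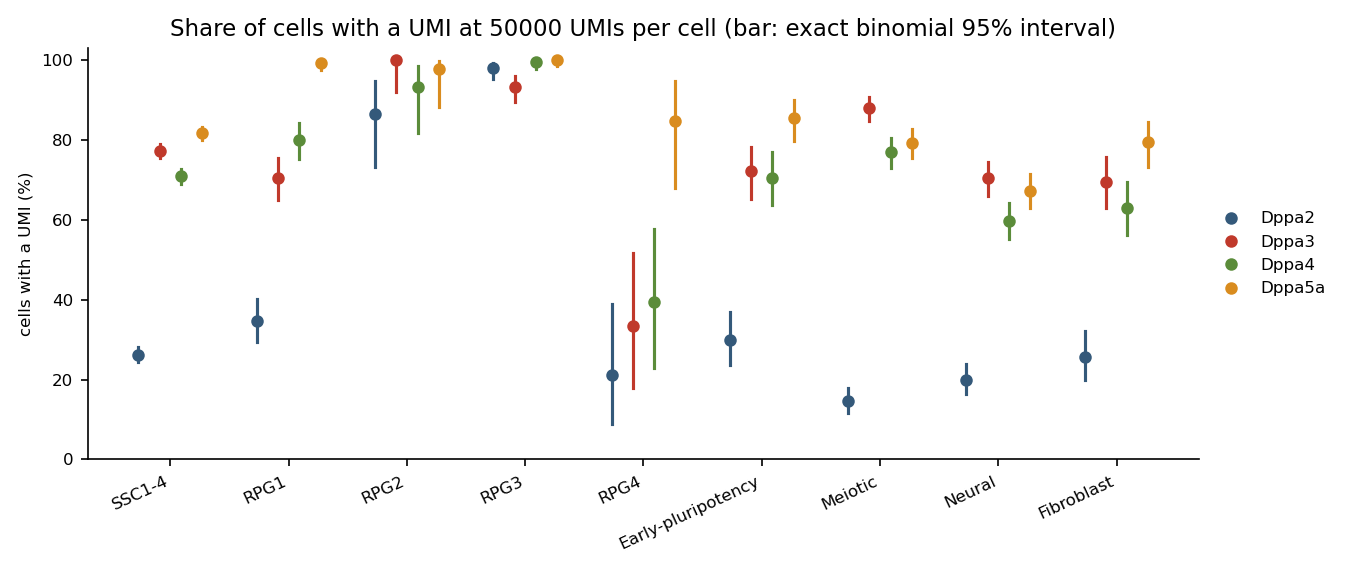
Percent of cells with at least 1 UMI of each member (y axis) in each class (x axis) after thinning to 50000 UMIs per cell, with exact binomial 95% intervals as bars. Shares of *Dppa2* lie between 14.6% and 34.6% in all classes but RPG2 and RPG3, and in RPG4 *Dppa5a* is at 84.8% and the other members below 40%, whereas before thinning *Dppa3* and *Dppa5a* were both at 90.9%.

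Within the SSC1-4 class the members varied in different ways. By subcluster, the median of *Dppa2* was 4.82 CPM in SSC1, 10.2 in SSC2, 20.6 in SSC3 and 16.5 in SSC4, and that of *Dppa4* was 48.8, 38.0, 56.8 and 102.7, with a range of 71.4 to 150.3 in SSC4. *Dppa3* had medians of 90.2, 99.4, 81.3 and 62.8, and *Dppa5a* stayed at 75.3 to 81.7. The subclusters were defined on these cells and were not tested.

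Over the days of culture, *Dppa4* in SSC1-4 cells was at 74.9 CPM in the day 0 library, and its medians lay between 42.6 and 52.8 on days 10 to 18. It was at 65.3 (57.1 to 101) on day 20, at 88.9 (69.3 to 102), the highest median, on day 23 and at 36.7 (34.6 to 37.1), the lowest, on day 27, without overlap between day 27 and days 20 or 23. *Dppa2* was at 5.44 CPM in the day 0 library and 8.83 in that of day 10, with medians of 6.07, 12.7, 1.75, 9.89, 16.5, 15.3 and 10.9 on days 12, 14, 16, 18, 20, 23 and 27. *Dppa3* was at 67.3 and 76.2 in the libraries of days 0 and 10, with medians of 142, 116, 68.8, 143, 87.1, 77.6 and 101 on the same later days, and its libraries of day 16 alone spanned 18.5 to 219. Neither gene followed 1 direction over the days. A linear slope with day was called for no member (0.99% of 17882 genes called in either direction) by edgeR or DESeq2, nor did any reach an unadjusted p under 0.05. Slopes per day were 0.052 ± 0.030 for *Dppa2*, -0.022 ± 0.018 for *Dppa3*, 0.0027 ± 0.015 for *Dppa4* and 0.013 ± 0.011 for *Dppa5a* on the log2 scale. A slope does not describe a level that goes up and then down.

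*Dppa3* and *Dppa4* ran in opposite directions across the SSC1-4 sums. Over 36 libraries Pearson's r was -0.67 (permutation p = 2e-05, or 0.00012 adjusted over the 6 pairs of members, two-sided) and Spearman's rho was -0.56 (permutation p = 0.00043, adjusted 0.00258). It was -0.54 without the 2 libraries farthest from the median of *Dppa3*, and -0.49 within batch B1 (29 libraries) and -0.90 within batch B2 (7 libraries). The other 5 pairs had adjusted permutation p of 0.299 or more. The libraries share culture days and subclusters, whose part in this relation was not tested. Over the 82 sums of all classes, the same pair had r = 0.64, and both genes were high in RPG2 and RPG3.

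**Figure D4:**
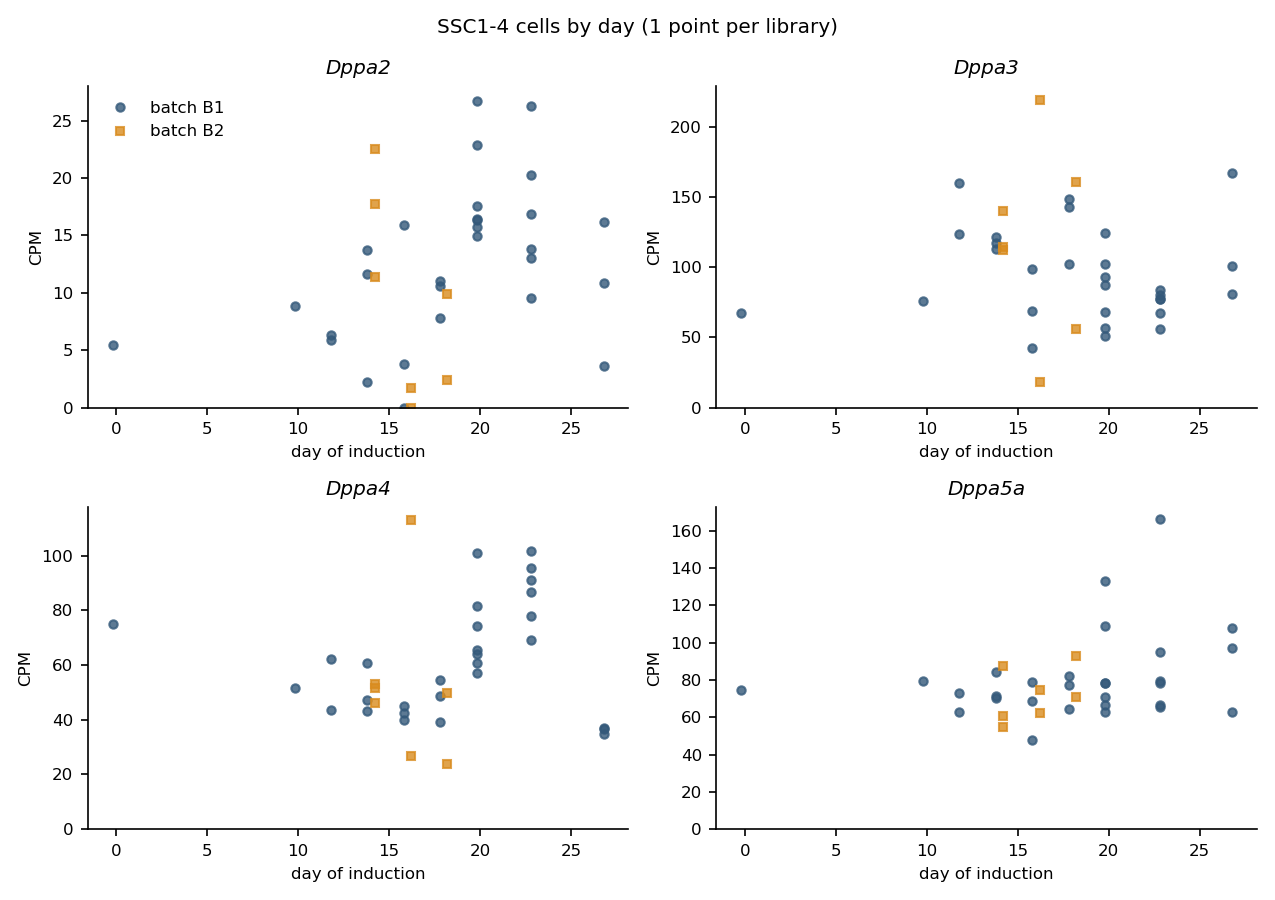
Level of each member in CPM (y axis) in the SSC1-4 cells of each library by day of culture (x axis), circles for batch B1 and squares for batch B2. By median *Dppa4* is highest on day 23 (88.9 CPM), its highest single point is day 16 replicate 6 (113 CPM), and it lies at 34.6 to 37.1 CPM in the 3 libraries of day 27, while *Dppa5a* stays between 47.8 and 167 CPM throughout.

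In the established lines *Dppa2*, *Dppa4* and *Dppa5a* stood above every SSC1-4 library, while *Dppa3* lay within the SSC1-4 range. *Dppa5a* was at 1489 CPM (exact Poisson 95% interval 1469 to 1509) in gPSC p1, 1330 (1308 to 1352) in gPSC p15 and 1356 (1338 to 1375) in ESC, next to the RPG3 median of 1348. *Dppa2* was at 233, 111 and 148 CPM and *Dppa4* at 289, 134 and 185 in the same order, so both were lower at passage 15 than at passage 1. *Dppa3* went the other way, at 88.4 (83.6 to 93.5) in gPSC p1, 213 (205 to 222) in gPSC p15 and 159 (152 to 165) in ESC. With 1 library each there is no test, and the intervals cover counting error only. *Dppa1* had 9 UMIs in the ESC library and 0 in both gPSC libraries, which allows up to 0.263 and 0.341 CPM as the upper end of the exact Poisson interval.

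The treated samples were compared within the classes that the authors had predicted for their cells. In SSC1-4 cells *Dppa3* was at 57.6, 49.0, 27.9, 17.2, 50.1, 26.4, 65.7 and 53.1 CPM in 5C replicates 1 to 8, and at 132, 428 and 331 in DMSO replicates 3, 4 and 5. Every 5C sample lay below every DMSO sample. The drop was 7.06-fold (-2.82 ± 0.29, adjusted p = 2.2e-07), and *Dppa3* was the only member called, where 2.49% of 12260 genes were called lower. It was -2.86 without the 8 cells of day 0 and was called in each of the 18 alternatives. The 4 markers of differentiating spermatogonia summed to 95.1 to 214 CPM in the 5C samples and to 298 to 358 in the DMSO samples. The sums of 8 fibroblast or feeder markers were 6.11 to 36.4 and 43.2 to 73.1, so that both sets separated the arms as *Dppa3* did. The 6 meiotic markers did so narrowly (65.5 to 123.0 and 123.5 to 131), and 5 neural markers the other way (8.86 to 29.2 and 3.24 to 8.48). The SSC, pluripotent and testis somatic markers overlapped. The part of these markers in the drop of *Dppa3* was not tested. *Dppa4* was at 47.6 to 136 CPM with 5C and at 37.1 to 66.5 with DMSO (0.68 ± 0.26, adjusted p = 0.0641). *Dppa5a* was at 282 and 276 CPM in 5C replicates 5 and 6, at 61.6 to 99.7 in the other 6, and at 99.0 to 116 with DMSO (0.14 ± 0.38, adjusted p = 0.831). *Dppa2* was low in both arms, at 3.31 to 15 CPM with 5C and 3.33 to 7.12 with DMSO.

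In the reprogramming classes it was *Dppa5a* that differed. In RPG1 it was at 220, 283, 434 and 118 CPM in 5C replicates 2, 5, 6 and 8 and at 794 and 1081 in DMSO replicates 1 and 2, a 4.10-fold drop (-2.04 ± 0.30, adjusted p = 0.000236) where 0.588% of 9350 genes were called lower. The RPG3 values were 1769, 2526, 3472, 2077, 1308 and 1384 CPM in 5C replicates 1, 3, 5, 6, 7 and 8, and 4749 and 4479 in the same DMSO replicates, a 2.97-fold drop (-1.57 ± 0.25, adjusted p = 0.000519) where 1.19% of 11390 genes were called lower. Neither class overlapped between the arms. In RPG3 the 8 SSC markers summed to 431 to 780 CPM with 5C and to 282 to 288 with DMSO. The 4 markers of differentiating spermatogonia summed to 19.4 to 77.6 and to 10.1 to 11.8. The other marker sets overlapped there. In RPG1 the SSC markers overlapped, at 2340 to 2552 and 2293 to 2553 CPM. The part of such differences in the drop of *Dppa5a* was not tested. Without DMSO replicate 1 the RPG3 call was lost (-1.52, adjusted p = 0.0153). It was also lost on library sizes alone, without TMM scaling, where the drop was smaller than the fold required (-1.14 ± 0.24, adjusted p = 0.00434) and the median of all genes moved from 0.074 to 0.51. RPG2 showed 1350, 308 and 1175 CPM in 5C replicates 1, 7 and 8 and 6365 in the single DMSO sample, and RPG4 showed 279 in the single 5C sample and 1277 and 1538 with DMSO, neither of which was tested. All DMSO sums of RPG1 to RPG4 came from replicates 1 and 2 on day 20.

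*Dppa3* was not called in RPG1 or RPG3, where it was tested. In RPG3 it was at 662 and 915 CPM in the 5C samples of day 12, at 140 and 167 on day 14 and at 216 and 648 on day 16, against 225 and 240 with DMSO (0.56 ± 0.54, adjusted p = 0.545), and in RPG1 the difference was 0.81 ± 0.57 (adjusted p = 0.430). A test of the difference itself, chosen after these values were seen, gave a difference between 5C and DMSO samples in *Dppa3* that was higher in RPG3 than in SSC1-4 by 3.36 ± 0.64 on the log2 scale (adjusted p = 0.000368; 2.38% of 13513 genes called). Without DMSO replicate 1 in RPG3 the call was lost (3.33, adjusted p = 0.0111). The DMSO sums were of replicates 1 and 2 in RPG3 and RPG1 and of replicates 3, 4 and 5 in SSC1-4, while 5C samples gave sums to several classes with no term for the sample, so that class and DMSO sample cannot be told apart here. The same difference for RPG1 was 3.59 ± 0.81 and missed the threshold (adjusted p = 0.0124, with 0.348% of genes called). Without DMSO replicate 3 in SSC1-4 this RPG1 difference was called (3.94, adjusted p = 0.00392). For *Dppa5a* the effect in RPG1 and in RPG3 was lower than in SSC1-4 by -2.15 ± 0.56 and -1.71 ± 0.53 (adjusted p = 0.0348 and 0.0334, not called), and the effects in RPG3 and RPG1 differed by 0.44 ± 0.60 (adjusted p = 0.760; 0.37% of genes called). In RPG4, which was not tested, *Dppa3* was at 577 CPM in the single 5C sample and at 53.5 and 101 with DMSO, and *Dppa4* at 31.2 against 79.3 and 81.3. *Dppa2* and *Dppa4* were called in no class tested. Their 5C and DMSO levels in RPG3 were 93.3 to 166 and 95.1 to 102.6 CPM for *Dppa2*, and 154 to 353 and 199 to 231 for *Dppa4*, with fitted differences of -0.04 (95% interval -0.51 to 0.42) and -0.11 (-0.59 to 0.38). The medians in CPM ran the other way (137 with 5C and 98.9 with DMSO for *Dppa2*, 298 and 215 for *Dppa4*), since the fit scales libraries by TMM and CPM do not. On library sizes alone the differences were 0.39 ± 0.25 and 0.33 ± 0.25, so no direction is given for either gene.

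**Figure D5:**
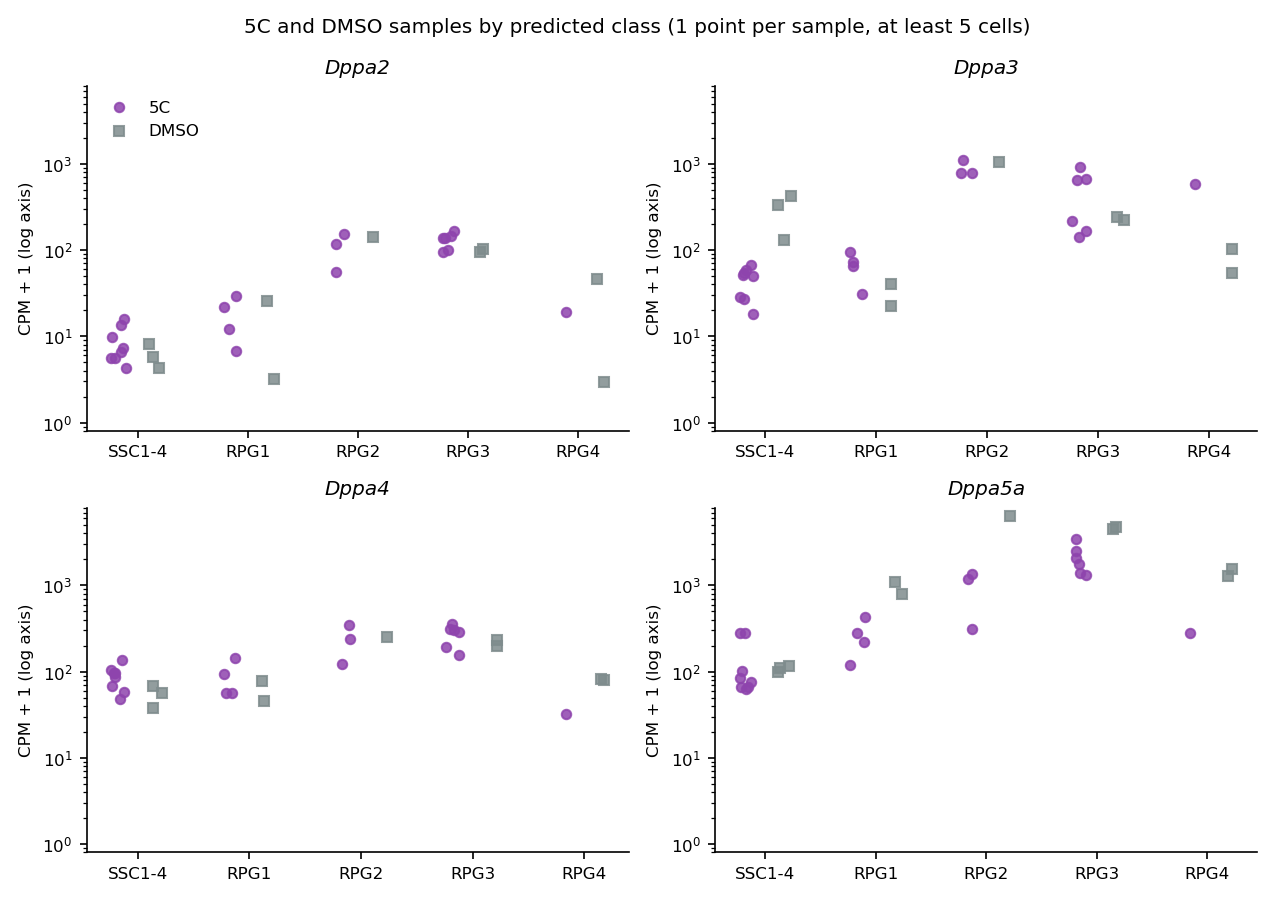
Level of each member as CPM + 1 on a log axis in the 5C samples (purple circles) and DMSO samples (grey squares) by predicted class, with 1 point per sample that held at least 5 cells. *Dppa3* separates the arms in SSC1-4, where 5C samples reach 65.7 CPM at most and DMSO samples start at 132, and *Dppa5a* separates them in RPG1 and RPG3, with DMSO higher.

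The genes whose pattern over the 82 sums was most like that of each member, by Pearson's r of log2 CPM with a prior count of 2, are given as a description, since the sums share libraries and classes. *Dppa5a* was most like *Platr7*, a long noncoding RNA of pluripotent cells (r = 0.94), followed by *Aoah* (0.92), *Dhx16* (0.91), *Gm14406* (0.91) and *Gm33994* (0.90). *Dppa4* had *Gm14406* (0.81), *Morc1*, a germline gene that represses transposons (0.81), *Gm33994* (0.79), *Dhx16* (0.79) and *Crisp1* (0.78). *Dppa2* had *Thoc6* (0.82), *Apoe*, *Arcn1*, *Gsta4* and *Tdh*, the threonine dehydrogenase of mouse ESCs (all 0.81). The likeness was weakest for *Dppa3*, with *Alpl*, the alkaline phosphatase of germ and pluripotent cells (0.73), *Morc1* (0.72), *Dcaf4* (0.71), *Epb41l4a* (0.70) and *Gm6792* (0.69). Among the members, r ran from 0.49 (*Dppa3* and *Dppa5a*) to 0.76 (*Dppa4* and *Dppa5a*).

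The family was set beside lists of genes that work around it. Of the genes known as 2-cell-like or DPPA2 and DPPA4 targets, 8 passed the filter on low counts, but only 4 did so without the RPG1 cells of the day 23 replicate 1 library. The *Zscan4* genes had 0 UMIs in the RPG2 libraries, so the list says little about RPG2, where *Syce1*, a synaptonemal complex gene, was the 1 gene called (-2.22). In RPG3 *Zscan4c* (3.30) and *Zscan4b* (2.81) were higher and *Syce1* (-2.0) lower, but all 62 *Zscan4* UMIs of RPG3 came from the day 23 replicate 1 library. Within the 2 libraries holding both classes, 1 gene of the list was testable there, and it was called lower. In RPG1 6 of the 8 were called higher, led by *Zscan4b* (7.14) and *Zscan4c* (7.10), but 932 of the 972 *Zscan4* UMIs of the day 23 replicate 1 library came from 1 cell of 39, and without that library 0 of 4 testable genes were called. That cell held *Dppa5a* at 957 CPM and *Dppa2* at 40.7 CPM.

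Among the KH-domain relatives and maternal complex genes, 4 of 8 were called higher and 0 lower in RPG2 (7.9% of all genes called higher; median of the list 1.86 against -0.52 for all genes), namely *Khdc3* (8.17), *Padi6* (5.84), *Zbed3* (4.64) and *Ooep* (3.64). In RPG3, which shares the SSC1-4 controls, 4 were higher (11.1% of all genes) and 0 lower, at 7.32, 7.75, 4.73 and 4.60 for those genes. Within the 2 libraries holding both classes, 2 of 6 testable genes were called higher in RPG2 and 3 of 5 in RPG3. In these fits 1242 and 1743 genes in all were called. From RPG3 to RPG4, *Ooep* (-4.98) and *Tle6* (-3.38) fell (1.78% of all genes called lower), while *Zbed3* was still 5.79 above SSC1-4 in RPG4. In RPG1 only *Khdc3* (2.71) was called (1.41% of all genes called in either direction), and within the libraries holding both classes, where 1 gene in all was called, none of the list was. OOEP, TLE6, KHDC3 and NLRP5 are known as partners in a complex of the oocyte.

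Of the 11 DNA methylation genes around DPPA3, 6 were called higher and 1 lower in RPG2 (7.9% of all genes called higher; median of the list 1.64), with the demethylation enzymes *Tet1* (5.37) and *Tet2* (4.88) and the methylation cofactor *Dnmt3l* (2.87) up and *Tet3* (-3.56) down. In RPG3 6 were higher and 0 lower (11.1% of all genes called higher; median of the list 1.81 against -0.25 for all genes), among them *Tet1* (5.57), *Tet2* (5.37), *Dnmt3l* (5.30) and the imprint protector *Zfp57* (3.56). RPG4, where *Dppa3* was lowest, kept *Tet1* (4.61) and the *de novo* methyltransferase *Dnmt3b* (2.79) above SSC1-4, and from RPG3 to RPG4 *Dnmt3l* fell by 4.98 and *Zfp57* by 2.53 on the log2 scale while *Tet3* rose by 2.25. Of 12 primordial germ cell genes, 6 were higher and 2 lower in RPG2 (7.9% of all genes called higher, and 3400 called in all, 46.6% of them higher). They were led by *Prdm14* (8.13) and *Bmp4* (5.79), with *Nanos2* (-3.48) lower. In RPG3 against SSC1-4, 5 were higher and 3 lower (5122 of all genes called, 43.2% of them higher). From RPG2 to RPG3, where *Dppa3* was at -1.09, *Nanos3* (-3.94), *Tfap2c* (-2.69) and *Kit* (-2.04) were the 3 genes called lower (1.87% of all genes called in either direction).

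Of 18 pluripotency genes, 7 were called higher and 0 lower in RPG1 (1.41% of all genes called in either direction), 18 and 0 in RPG2 (7.9% called higher), 17 and 0 in RPG3 (11.1% called higher), and 9 and 4 in RPG4 (2756 of all genes called, 48.8% of them higher). Within the 2 libraries holding both classes, 16 of the 18 were called in RPG3, where 1743 genes in all were called, and 0 in RPG1, where 1 gene in all was called, so that this fit says little about the list in RPG1. *L1td1* (7.84), *Tdgf1* (7.07), *Nanog* (6.04) and *Zscan10* (5.10) stayed high in RPG4 of the original condition, where the Dppa genes did not. From RPG3 to RPG4, 7 of the 18 were called lower, among them *Nr0b1* (-6.47), *Tfcp2l1* (-5.63), *Fbxo15* (-5.45) and *Tbx3* (-5.31), and 0 higher. Within the 2 libraries holding both classes it was 11 lower and 0 higher, where 643 genes in all were called. In SSC1-4 cells under 5C, where *Dppa3* was lower, 4 of 17 were higher than with DMSO (602 of 12260 genes called, 49.3% of them higher), which were *L1td1* (9.07), *Nr0b1* (7.46), *Tdgf1* (6.55) and *Sox2* (2.24). In RPG1 under 5C, where *Dppa5a* was lower, 2 of 16 were lower, *Tdgf1* (-1.90) and *Utf1* (-1.65), and 0 higher (0.588% of all genes called lower). In RPG3, where *Dppa5a* was lower too, 1 of 18 was higher, *Klf4* (1.77), and 1 lower, *Tdgf1* (-1.64). There 275 genes in all were called, 50.9% of them higher. *Dppa1* had UMIs in few sums, at most 4.11 CPM in SSC1-4, and had an adjusted p of 0.0919 or more in every comparison of classes.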

How the data were processed

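The deposited tables hold UMI counts of genes by cells, not normalized, which the authors made after their filters on cells. The authors' annotation table gives the cluster, batch, library and percent of mitochondrial UMIs of each STRT-seq cell, and the percent values were computed by the authors before deposit. According to the submitters' processing notes and the paper's methods, reads were aligned to mm10 with STAR 2.7.2b, assigned with featureCounts 2.0.0 and counted per UMI. The authors kept cells by detected genes and mitochondrial share, and predicted the classes of the scTrio-seq2 cells by training on the STRT-seq cells. Methylomes were not analysed here.

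Cells are not replicates, so UMIs of each class were added up within a library (minimum 5 cells). Genes were tested with edgeR 4.0.16 in R 4.3.3 (TMM, filterByExpr, glmQLFit, glmQLFTest) in 1 fit over the 82 sums of all classes, in 1 fit of the SSC1-4 sums by day, and in 1 fit per class for 5C against DMSO. The thresholds were 0.01 for the p adjusted over all genes tested and, except for slopes, 1 for the natural-log fold change. Levels are CPM without TMM, and fold changes include it. The Benjamini-Hochberg adjusted p-values named in the text are edgeR's unless a permutation test is named. A test of the difference in 5C effect between classes was added after the data had been seen. Correlations used 100000 permutations or prior counts of 2 where stated, and figures and tables numpy 2.4.6, scipy 1.17.1, pandas 2.3.3 and matplotlib 3.10.9. Alternatives were RLE size factors, no filter beyond 1 count, DESeq2 1.42.0, at least 10 cells per sum, batch as a covariate, sums per batch and day, a library block, subsets of libraries, the replicate number as a block and leaving out each library. On simulated data with known changes, 64.3% of 4-fold and 77.1% of 8-fold changes were recovered for RPG1 against SSC1-4 (16219 genes), 36% and 62.9% for RPG4 against RPG3 (14115 genes), and 74.2% and 85.3% for 5C against DMSO in SSC1-4 (11827 genes). For the comparisons of classes the simulation and its fit held only the sums of the 2 classes named. The tests came from 1 fit over 82 sums, so the shares recovered there may differ.

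By rule, the text names the 4 members, other Dppa genes, up to 4 called genes of each list and comparison ranked by size of change, and the 5 genes most correlated with each member. Other genes named were chosen after their values were seen. The members and the lists were chosen with earlier results of these data known.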

Additional observations from a re-analysis of the deposited data

Results flagged for a closer look

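Of 52 groups of 4 to 10 sums, 6 (11.5%) held a sum far from the rest of its group by Dixon's test, where chance gives about 1 in 20. *Dppa2* was at 63.41 CPM in the Fibroblast cells of day 27 replicate 5 (6 cells) and at 6.61 to 19.5 in the other Fibroblast sums, and *Dppa4* was at 66.12 CPM in those of day 8 replicate 1 and at 43.2 to 47.6 in the others. Among SSC1-4 sums, *Dppa3* was at 139.7 CPM in day 14 replicate 6 against 112 to 122 in the other libraries of that day. On day 16, *Dppa2* was at 15.94 CPM in replicate 5 (7 cells, 14 UMIs) against 0 to 3.76, and *Dppa4* was at 113.1 CPM in replicate 6 (8 cells) against 26.7 to 45.1. *Dppa5a* was at 166.6 CPM in the SSC1-4 cells of day 23 replicate 1, which also held RPG1 and RPG3 cells, against 65.7 to 94.8 in the rest of that day.

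The difference between 5C and DMSO samples in *Dppa3* was higher in RPG3 than in SSC1-4 by 3.362 on the log2 scale (edgeR interaction term, Benjamini-Hochberg adjusted p = 0.000368). In SSC1-4 all 8 treated samples lay below all 3 DMSO samples, and in RPG3 the treated samples lay on both sides of the 2 DMSO samples. Without DMSO replicate 1 in RPG3 the difference was 3.33 (adjusted p = 0.0111) and was no longer called. The DMSO samples of RPG3 (replicates 1 and 2) and of SSC1-4 (replicates 3, 4 and 5) were different ones, so that class and DMSO sample cannot be told apart.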

How the results depend on the processing

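Of 800 values of members and of their counts under an alternative, 746 kept their direction and their side of the threshold, 12 lost the call, 0 gained one and 42 changed sign, none of which had been called except *Dppa5a* in RPG1 within libraries. The cause of these changes was not tested, and the tests of the difference in 5C effect between classes are not among these values. Batch B2 alone, DMSO without its day 0 cells, and library sizes alone for 5C were chosen after seeing the data. In RPG1 the count of called members was 0 with at least 10 cells, with batch as a covariate, with sums per batch and day, and with a library block, and 0 to 1 leaving out each library. From RPG1 to RPG2 it was 3 to 4 leaving out each library. In RPG4 it was 1 without either library, and in RPG3 under 5C it was 0 to 1 leaving out each sample and 0 on library sizes alone, which there gave 0.39 for *Dppa2*, 0.33 for *Dppa4* and -1.14 for *Dppa5a*. A library block gave -0.46 for *Dppa2*, -0.29 for *Dppa4* and -0.0091 for *Dppa5a* in RPG1, 0.080 for *Dppa4* in Early-pluripotency, 1.17 for *Dppa2* and 0.013 for *Dppa5a* in Meiotic and 0.026 for *Dppa5a* in Fibroblast. Sums per batch and day gave -0.62 for *Dppa5a* in RPG4, 0.20 for *Dppa4* in Early-pluripotency, 0.59 for *Dppa2* in Neural and slopes of 0.011 for *Dppa3* and -0.020 for *Dppa4*. At least 10 cells gave -0.024 for *Dppa2* in Early-pluripotency, -0.0028 for *Dppa4* in Neural, and -0.028 for *Dppa2* and 0.081 for *Dppa5a* in Fibroblast, where RLE size factors gave 0.0017 and SSC1-4 libraries without RPG2 to RPG4 cells 0.039 for *Dppa5a*. Batch as a covariate gave -0.040 for *Dppa2* and 0.062 for *Dppa4* in Early-pluripotency. The slope of *Dppa4* was -0.0014 with batch, -2.0e-05 in B1, -0.071 in B2 and -0.0023 without libraries holding RPG2 to RPG4, and that of *Dppa2* was -0.37 in B2. Leaving out 1 library moved values in Early-pluripotency from -0.19 to 0.29 (*Dppa2*), -0.20 to 0.14 (*Dppa4*) and -0.58 to 0.045 (*Dppa5a*), in Fibroblast from -0.14 to 0.10 (*Dppa5a*), and from RPG2 to RPG3 from -0.33 to 0.10 (*Dppa2*). For 5C it moved them from -0.14 to 0.24 (*Dppa5a*, SSC1-4), -0.75 to 2.64 and -0.047 to 0.77 (*Dppa2* and *Dppa4*, RPG1), and -0.14 to 0.034 and -0.20 to 0.0014 (*Dppa2* and *Dppa4*, RPG3).

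The number of all genes called moved by over 1.5 times in every comparison. Against SSC1-4 it went from 283 to between 1 (library block) and 484 (no filter) in RPG1, from 3400 to 1242 in RPG2 and from 5122 to 1743 in RPG3 (both library block), from 2756 to 1555 in RPG4 (leaving out a library), from 55 to between 0 and 162 in Early-pluripotency, from 85 to between 0 and 278 in Meiotic, from 504 to 45 in Neural and from 761 to 0 in Fibroblast. It went from 2424 to 1123 between RPG1 and RPG2, from 375 to between 32 and 727 between RPG2 and RPG3, from 705 to 271 between RPG3 and RPG4, from 177 to between 0 and 617 for slopes, and under 5C from 602 to 373 in SSC1-4, from 91 to between 30 and 199 in RPG1 and from 275 to between 41 and 531 in RPG3. The share called higher went from 23.2% to 48.3% for slopes with RLE size factors, and with DESeq2 from 73.9% to 27.9% in RPG1, 81.8% to 3.91% in Early-pluripotency, 78.8% to 2% in Meiotic, 85.5% to 64.3% in Neural (4.44% with a library block), 23.2% to 42.3% for slopes, 46.6% to 32.6% in RPG2, 48.8% to 37% in RPG4, 50.1% to 68.8% between RPG2 and RPG3 and 50.9% to 71.2% for 5C in RPG3. On library sizes alone it went to 91.3% for 5C in RPG3 and from 39.6% to 62% in RPG1, with medians of all genes of 0.51 and 0.31. RLE size factors moved the median of all genes from -0.54 to -0.39 in RPG4 and from -0.27 to -0.15 between RPG3 and RPG4.

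With the replicate number as a block, *Dppa3* under 5C in SSC1-4 was -3.19 (edgeR adjusted p = 5.0e-07). Same-numbered samples had correlations of -0.020 to 0.049, so the numbers were not taken as pairs. No paired analysis was possible because fewer than 2 numbers were shared for RPG1 and RPG3 under 5C. Classes were paired by library, as the library block above. A library block could not be fitted for RPG4 against SSC1-4, RPG2 against RPG1 and RPG3 against RPG2.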

Other observations

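In RPG4 against SSC1-4, 2 of 12 primordial germ cell genes were called higher and 5 lower by edgeR, where 2756 of all genes were called, 48.8% of them higher, and 1555 to 1635 without 1 of the 2 RPG4 libraries. *Sox17*, an endoderm and germ cell regulator, was higher (8.78 on the log2 scale), and *Tfap2a* (-8.36), *Nanos2* (-5.29) and *Nanos3* (-4.45), the last 2 of which encode RNA-binding proteins of germ cells, were lower. Over the 8 RPG3 libraries, Pearson's r between members ran from 0.54 (*Dppa3* and *Dppa4*) to 0.83 (*Dppa2* and *Dppa4*), as a description over sums that share days and batches.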
